A study of Homo sapiens with 10 samples.

Results

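The BCL2 family decides whether the outer membrane of the mitochondrion is opened, and the 10 genes described here are its best known killers and protectors. They were taken by symbol from a table of RNA levels and a table of ribosome-protected fragments. The 7 killers were BBC3, PMAIP1, BID, BAD, BCL2L11, BAX and BAK1, and the 3 protectors were BCL2, BCL2L1 and MCL1. Of the 10, 8 had a row in both tables, among the 11258 transcripts that both tables list. For BCL2L11 RNA values alone were used, and its ribosome density was not analysed here. BAX was not analysed here.

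Killers of the BH3-only type (BBC3, PMAIP1, BID, BAD, BCL2L11) bind the protectors or act on the pore formers BAX and BAK1, which permeabilise the mitochondrial outer membrane and let cytochrome c reach the caspase-activating apoptosome. The protectors hold the pore formers and the BH3-only proteins in check. BBC3 (PUMA), PMAIP1 (NOXA) and BAX are textbook targets of the transcription factor p53, and fibroblasts with active p53 are known to arrest more readily than they die.

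The cells were BJ cells, human primary fibroblasts immortalised with the telomerase gene hTERT, grown in serum. They were either left as control cells or given nutlin-3a, a small molecule that keeps MDM2 from binding p53, for 2, 4, 6 or 19 h. Each of these 5 conditions gave 1 RNA-Seq library of poly(A) RNA and 1 Ribo-Seq library of RNA fragments protected by ribosomes, stalled with cycloheximide, for 10 libraries in all. All libraries came from 1 line, and both assays share the control condition as the sole reference for the 4 treated times.

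There was 1 library per group, so no difference between conditions has a replicate check and no p-values are given. Levels are FPKM, fragments relative to the length of the transcript and to the size of the library. FPKM values fall on steps of 1 read, which gave the read numbers behind the members' values, and the library totals came to between 23845569 and 27554282 reads in RNA-Seq and between 7744898 (the 19 h library) and 14460725 in Ribo-Seq. The intervals printed after a fold, after the words 95% interval, are exact (those of TE are approximate) and cover the counting of reads only, not the spread between cultures or sequencer runs. A change was called when the level, with values under 1 FPKM set to 1, was 2-fold above or below the control library. Calls were made for the 7015 genes with 5 FPKM or more in both assays, each in 1 library or more. Of the members, 7 met this (BBC3, PMAIP1, BAK1, BID, BAD, BCL2L1 and MCL1) and BCL2 did not.

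All 10 fibroblast markers listed, from COL1A1 and VIM to THY1 and PDGFRB, reached at least 5 FPKM in both assays, while the endothelial marker VWF stayed at or below 0.156 FPKM. Among epithelial markers, CDH1 and KRT19 were near 0 in RNA and KRT18 and KRT8 were not. Among leukocyte markers, CD68 alone passed 5 FPKM. CDKN1A, the p53 target that encodes the p21 arrest protein, went from 68.6 FPKM of RNA in the control to 1316 at 19 h, and MDM2, the p53 inhibitor that is itself a p53 target, from 14.9 to 259. Both of these p53 targets were thus far above the control in the treated cells.

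The region upstream of a gene is among the places where p53 can bind, as a pair of like decamers. Because BBC3, PMAIP1 and BAK1 were the members past 2-fold, the 250 bases before their RefSeq start are printed 5′ to 3′ on the gene's strand (assembly GRCh38.p14), for BBC3 chr19:47232668-47232917 (minus strand), for PMAIP1 chr18:59899746-59899995 (plus strand) and for BAK1 chr6:33580277-33580526 (minus strand). Capitals mark the best match to 1 decamer of the p53 consensus motif, among decamers that keep the C and G of its core.
BBC3: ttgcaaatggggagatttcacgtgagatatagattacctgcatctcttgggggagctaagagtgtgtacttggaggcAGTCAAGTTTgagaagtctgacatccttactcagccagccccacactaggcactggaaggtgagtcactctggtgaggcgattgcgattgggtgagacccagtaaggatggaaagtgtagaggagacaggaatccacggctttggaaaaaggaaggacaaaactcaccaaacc
PMAIP1: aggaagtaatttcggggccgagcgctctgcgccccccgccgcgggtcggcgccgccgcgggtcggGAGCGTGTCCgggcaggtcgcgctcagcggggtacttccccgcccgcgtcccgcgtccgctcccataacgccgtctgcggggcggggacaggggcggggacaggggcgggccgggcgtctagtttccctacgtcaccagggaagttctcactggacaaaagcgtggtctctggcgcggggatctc
BAK1: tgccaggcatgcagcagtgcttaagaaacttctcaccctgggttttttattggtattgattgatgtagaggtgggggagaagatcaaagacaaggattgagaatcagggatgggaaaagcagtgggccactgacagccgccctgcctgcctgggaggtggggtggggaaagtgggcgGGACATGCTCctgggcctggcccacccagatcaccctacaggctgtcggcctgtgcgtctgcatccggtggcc

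The decamer in BAK1 matched the p53 consensus exactly and began 73 bases before the start. Those in BBC3 and PMAIP1 differed from the consensus at 1 position and began 173 and 185 bases before it. The C and G of the core were required, so a mismatch was allowed at the other positions only. Decamers with a mismatch in the core were not counted, in the members or in the whole table. Matches under this rule are common. An exact decamer stood in 5.57% of the 35116 promoters of the RefSeq table and 1 with up to 1 mismatch in 39.3%, searched on both strands, since the motif reads alike on each. The table lists 15 promoters for 9 members, all but MCL1. Of these 15, 5 (33.3%) held a decamer with up to 1 mismatch outside the core. They were those of these 3 genes, that of BCL2L11 and 1 of those of BID. A match of letters is a description of the sequence and not a measured site.

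BBC3 was the family member that stood farthest above the control. It codes for PUMA, a BH3-only protein that binds every protector. Its RNA stood at 1.95 FPKM in the control library, 9.42 after 2 h, 18.9 after 4 h, 12.2 after 6 h and 14.2 after 19 h. All 4 treated libraries were thus above the control, with the highest level at 4 h. The fold over the control was 4.83 after 2 h (95% interval 3.83 to 6.16), 9.69 after 4 h (7.75 to 12.3), 6.26 after 6 h (4.98 to 7.95) and 7.29 after 19 h (5.81 to 9.25). The step from 4 h to 6 h was a drop to 0.646 of the 4 h level (95% interval 0.581 to 0.718), and the level at 19 h was 1.16 times that at 6 h (1.04 to 1.30). In bulk libraries like these, more cells with the transcript and more of it per cell cannot be told apart. BBC3 belongs to a list of p53 targets that the study picked from its own data, so its direction here is not independent evidence.

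Ribosome density on BBC3 followed the same course with a wider swing. It stood at 1.02 FPKM in the control, 4.85 after 2 h, 18.8 after 4 h, 12.2 after 6 h and 10.4 after 19 h, from 22, 105, 497, 224 and 147 reads. The control value, which rests on the fewest reads, sets the width of every interval. The fold was 4.73 after 2 h (95% interval 2.97 to 7.88), 18.4 after 4 h (12 to 29.6), 11.9 after 6 h (7.66 to 19.4) and 10.1 after 19 h (6.46 to 16.7). Density rose 3.88-fold between 2 h and 4 h (95% interval 3.14 to 4.84), against 2.01-fold for the RNA (1.79 to 2.25).

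Translational efficiency (TE) is the ratio of ribosome density to RNA. For BBC3 its log2 change against the control was -0.03 after 2 h, 0.92 after 4 h, 0.92 after 6 h and 0.48 after 19 h, with counting errors of 0.38, 0.35, 0.36 and 0.37. These values stayed under 2-fold. The counting interval of the TE ratio lay above no change after 4 h (1.17 to 3.07) and after 6 h (1.16 to 3.11), and spanned it after 2 h and 19 h. The size of these changes depends on how low values are treated. With a pseudocount of 1 FPKM they were 0.54 at both 4 h and 6 h. With a floor of 5 FPKM they were -0.0073 at 4 h and -0.0053 at 6 h. That floor lies above the control levels of both assays, so these 2 values are the TE of the treated libraries alone. They cannot show which control level the changes rest on. The median TE change of all tested genes was 0.18 at 4 h and 0.0021 at 6 h.

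PMAIP1, which codes for NOXA, a BH3-only protein that binds mainly MCL1, was higher for a short time. Its RNA was 8.51 FPKM in the control, 12.2 after 2 h, 18.4 after 4 h, 10.2 after 6 h and 10.4 after 19 h. Density was 11.5, 18.2, 30.6, 11.5 and 15.3 FPKM at the same times. In both assays the 4 h library was the highest, and the 6 h library was close to the control. RNA at 4 h was 2.17-fold the control (95% interval 1.87 to 2.52) and density 2.67-fold (2.25 to 3.19). By 6 h the RNA had dropped to 0.551 of its 4 h level (95% interval 0.481 to 0.630) and density to 0.375 (0.310 to 0.451). Against the control, the fold in density was then 1.00 (0.798 to 1.26). At 19 h it was 1.34 (1.07 to 1.68), and that of the RNA 1.22 (1.03 to 1.44).

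BAK1, a pore former that sits in the mitochondrial outer membrane, was closer to the control at 2 h than BBC3 and PMAIP1 were. The RNA level was 11.6 FPKM in the control, 13.8 after 2 h, 26.6 after 4 h, 22.5 after 6 h and 17.8 after 19 h. Density was 13.5, 12.7, 35.8, 27.7 and 19.1 FPKM. At 2 h density was thus slightly under the control, and from 4 h on it was above it. The RNA fold was 1.19 after 2 h (95% interval 1.07 to 1.33), 2.29 after 4 h (2.08 to 2.53), 1.94 after 6 h (1.76 to 2.14) and 1.54 after 19 h (1.39 to 1.71). The density fold was 0.937 after 2 h (0.802 to 1.09), 2.65 after 4 h (2.34 to 3.0), 2.05 after 6 h (1.79 to 2.35) and 1.41 after 19 h (1.21 to 1.65). Unlike PMAIP1, which was back near the control by 6 h, BAK1 kept 0.847 of its 4 h RNA at 6 h (0.785 to 0.914). Processed pseudogenes of BAK1 (BAK1P1 and BAK1P2) are known and were not part of the alignment reference, so some reads counted here could come from them.

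**Figure D1:**
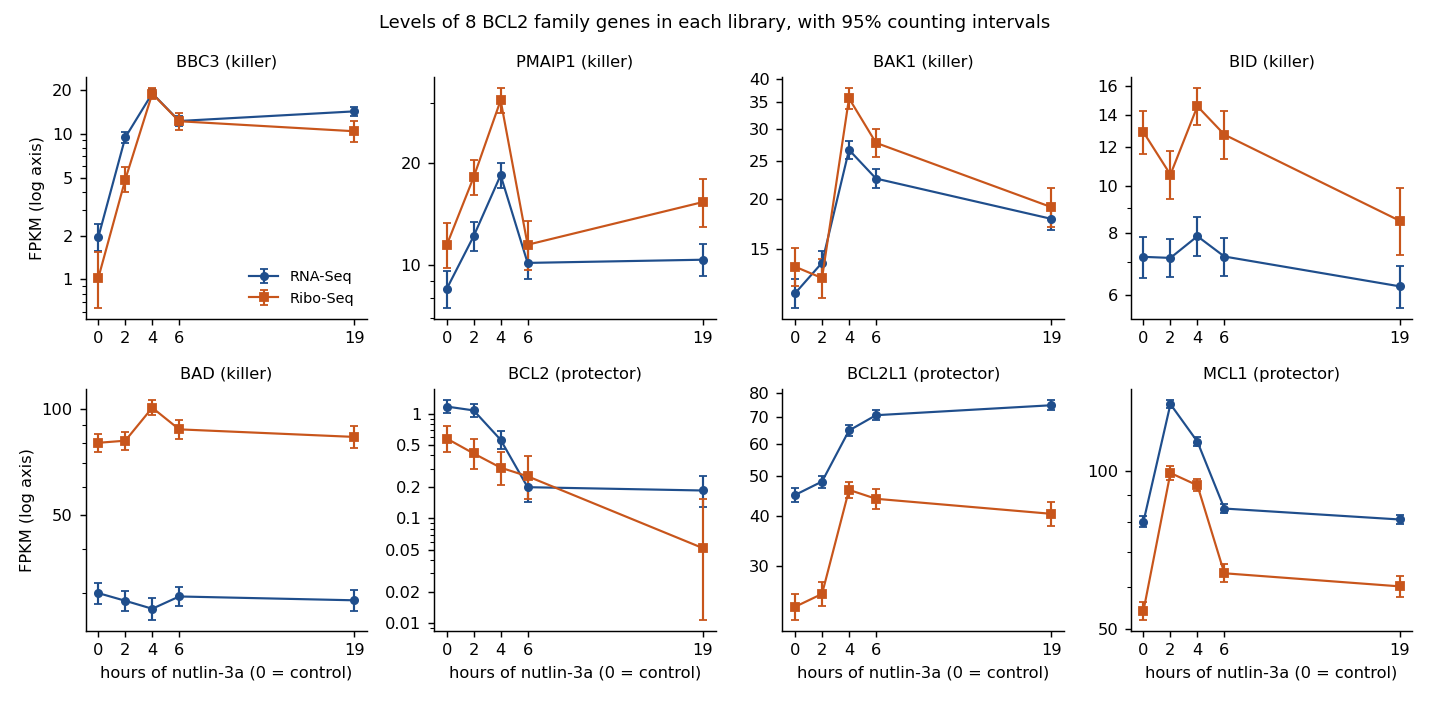
Level in FPKM on a log axis, with a range of its own in each panel, against hours of nutlin-3a for the 8 members with a row in both tables, RNA-Seq in blue circles and Ribo-Seq in orange squares, 1 library per point. Bars are 95% counting intervals. BBC3, PMAIP1 and BAK1 are highest at 4 h in both assays, MCL1 at 2 h, and BCL2 goes from 1.18 to 0.185 FPKM of RNA.

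BID and BAD moved little at the RNA level. BID is the BH3-only protein that is cut by caspase-8 and carries the signal of death receptors to mitochondria. Its RNA was 7.17 FPKM in the control and 7.13, 7.90, 7.18 and 6.24 at 2, 4, 6 and 19 h, with folds from 0.870 to 1.1. Density was 12.9 FPKM in the control and 10.6, 14.6, 12.7 and 8.49 in the treated libraries. The 19 h library was the lowest in both assays, at 0.659 of the control density (95% interval 0.545 to 0.794) and 0.870 of the control RNA (0.758 to 0.999). The median density of all tested genes was itself lower at 19 h, by a log2 change of -0.19.

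BAD is the BH3-only protein that survival signalling keeps phosphorylated and away from mitochondria. Its RNA stayed within 27.1 and 30.0 FPKM in all 5 libraries, with folds between 0.903 and 0.978. Density was 80.0 FPKM in the control, 81.1 after 2 h, 101 after 4 h, 87.3 after 6 h and 83.1 after 19 h. The 4 h library stood out, at 1.26-fold the control (95% interval 1.16 to 1.36), and the log2 TE change there was 0.48 with a counting error of 0.092, against a median of 0.18 over all tested genes.

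BCL2L11 codes for BIM, a BH3-only killer that growth factor withdrawal is known to raise. It was close to the limit of these RNA libraries, at 0.494 FPKM in the control and 0.478, 0.359, 0.219 and 0.610 at 2, 4, 6 and 19 h, from 43, 47, 32, 22 and 58 reads. The 6 h library was the lowest, at 0.443 of the control (95% interval 0.252 to 0.757), and the 19 h library the highest, at 1.23 (0.818 to 1.88). Every value lay under the 1 FPKM floor, so BCL2L11 could not be called.

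The 3 protectors went separate ways. Among the members whose highest RNA level was in a treated library, MCL1, a short-lived protector, reached that level first, at 2 h. Its RNA was 80.0 FPKM in the control, 134 after 2 h, 114 after 4 h, 84.7 after 6 h and 80.7 after 19 h. Density was 54.1, 99.0, 93.8, 63.8 and 60.2 FPKM. The 2 h and 4 h libraries were thus above the rest in both assays, and at 19 h the RNA was within counting error of the control, at a fold of 1.01 (95% interval 0.978 to 1.04). At 2 h the fold was 1.67 in RNA (1.63 to 1.72) and 1.83 in density (1.74 to 1.92), and at 4 h it was 1.42 (1.38 to 1.46) and 1.73 (1.65 to 1.82). None of these reached 2-fold.

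BCL2L1, whose long isoform BCL-xL is a protector and whose short isoform is a killer, was higher from 4 h on without turning back in RNA. Its RNA was 45.0 FPKM in the control, 48.5 after 2 h, 64.8 after 4 h, 70.6 after 6 h and 74.7 after 19 h. Density was 23.9, 25.7, 46.3, 44.0 and 40.4 FPKM. RNA was thus highest in the 19 h library and density in the 4 h library. The RNA fold reached 1.66 at 19 h (95% interval 1.59 to 1.74) and the density fold 1.94 at 4 h (1.78 to 2.12), short of the 2-fold mark. The tables hold 1 transcript per gene, so the long and short isoforms of BCL2L1 were not told apart, nor were the isoforms of MCL1 and BCL2L11.

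BCL2, the protector that gave the family its name, was lower in RNA from 4 h on. It was low from the start, at 1.18 FPKM of RNA in the control, 1.08 after 2 h, 0.565 after 4 h, 0.199 after 6 h and 0.185 after 19 h, from 209, 217, 103, 41 and 36 reads. The 4, 6 and 19 h libraries were all below the control and the 2 h library. As deposited, the level was 0.481 of the control after 4 h (95% interval 0.376 to 0.612), 0.169 after 6 h (0.118 to 0.238) and 0.157 after 19 h (0.107 to 0.225). Density was 0.581, 0.418, 0.306, 0.253 and 0.052 FPKM, from 51, 37, 33, 19 and 3 reads. At 19 h it was 0.0895 of the control, with an interval of 0.0178 to 0.276 because it rests on 3 reads. With both levels near or under the 1 FPKM floor, BCL2 made no call by the rule used for the others.

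The members' calls were read against the share of all tested genes that passed the same mark. At 2 h 1 of the 7 tested members, BBC3, was past 2-fold in RNA, where 0.941% of all tested genes were, counting both directions. The same member was past it in density, against 2.25%. BBC3, PMAIP1 and BAK1 were past it at 4 h in both assays, 3 of 7 against 2.1% in RNA and 3.11% in density. At 6 h there was 1 in RNA, BBC3, against 7.14%, and there were 2 in density, BBC3 and BAK1, against 13.3%. In the 19 h libraries BBC3 alone was called, with a background of 9.59% in RNA and 21.1% in density. All of these calls were higher, and no tested member was 2-fold lower at any time. BBC3 met the 5 FPKM filter through treated libraries alone, since its control levels were 1.95 (RNA) and 1.02 FPKM (density). BCL2, whose RNA was lower from 4 h on, did not meet it. The direction of the calls thus follows in part from the filter. In TE none of the 7 was past 2-fold in either direction, where 1.2%, 0.998%, 5.74% and 6.14% of all tested genes were after 2, 4, 6 and 19 h.

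Over the 7 tested members the median log2 change in RNA was 0.25 after 2 h, 0.53 after 4 h, 0.25 after 6 h and 0.29 after 19 h, while over all tested genes it lay between -0.074 and -0.0024. In density the members' median was 0.11, 0.96, 0.24 and 0.42, and that of all tested genes 0.016, 0.10, -0.020 and -0.19. The members' median was thus highest in the 4 h libraries, in both assays.

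**Figure D2:**
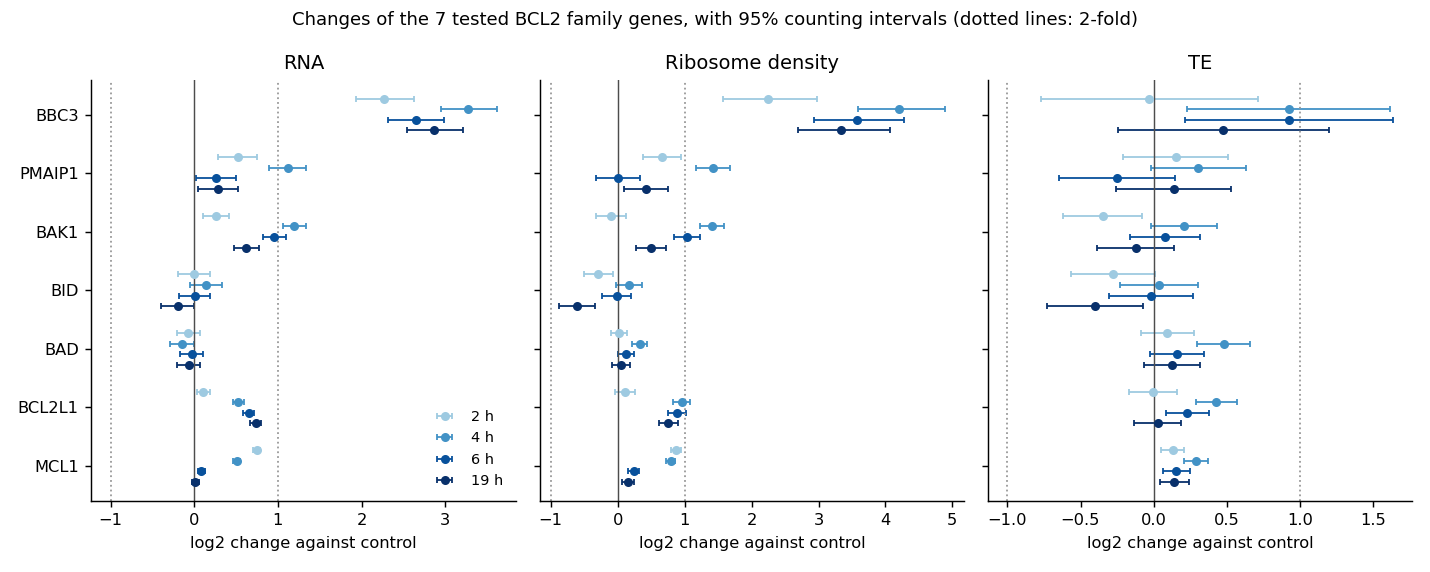
Log2 change against the control library in RNA, ribosome density and TE for the 7 tested members, with a colour for each time and 95% counting intervals as bars. Dotted lines mark 2-fold. BBC3 lies beyond the line in RNA and density at every time, PMAIP1 and BAK1 at 4 h and BAK1 also in density at 6 h, and in TE no point does.

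**Figure D3:**
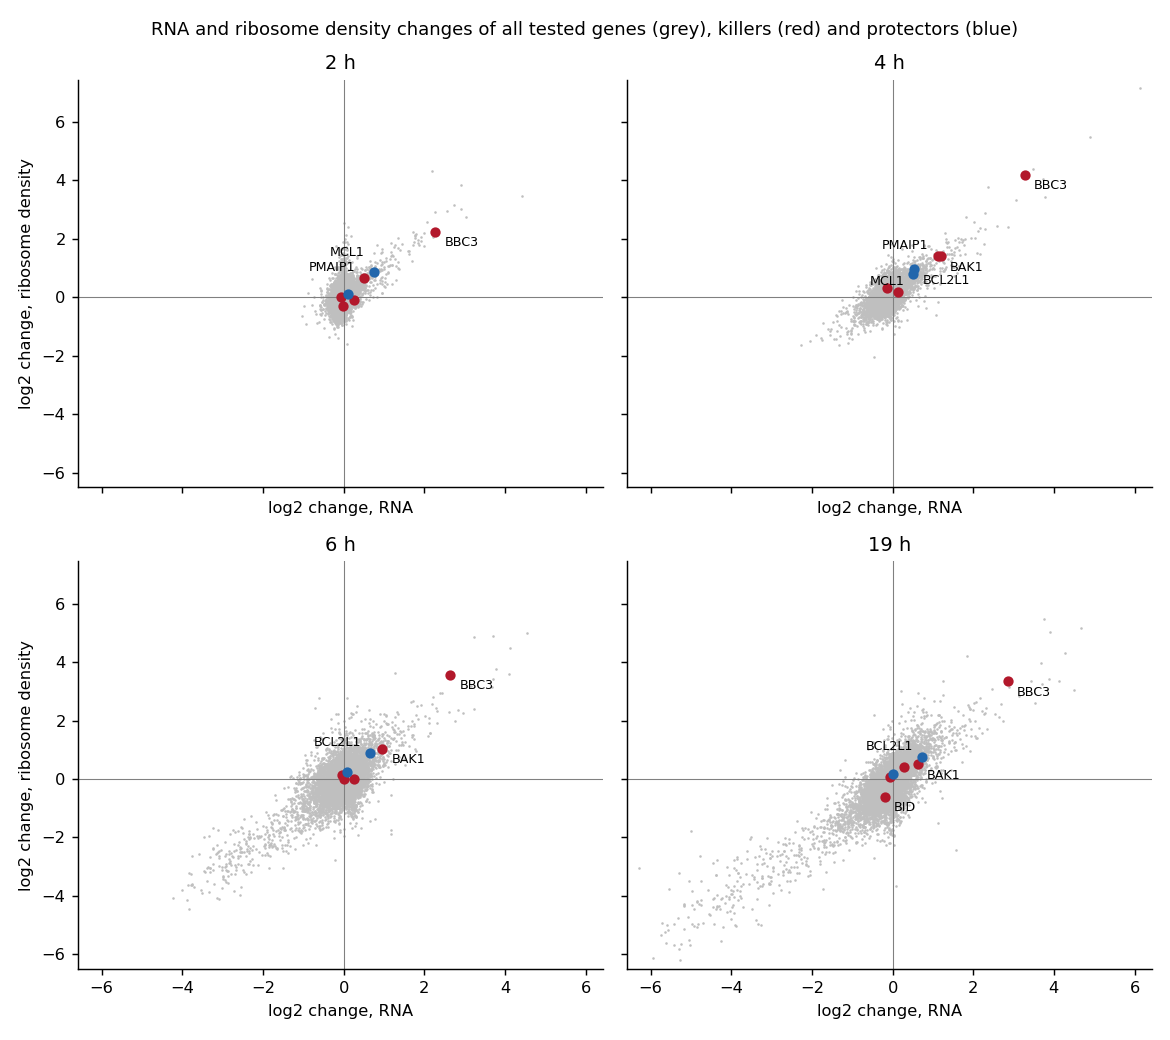
Log2 change in RNA (x axis) against log2 change in ribosome density (y axis) at 2, 4, 6 and 19 h for all 7015 tested genes in grey, the 5 tested killers in red and the 2 tested protectors in blue. BBC3 lies near the upper right end of the cloud at each time, with a log2 change of 3.28 in RNA and 4.2 in density at 4 h, while the other members lie closer to its centre.

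Among the members, FPKM levels of RNA were ordered in much the same way in all libraries. In the control the order was MCL1, BCL2L1, BAD, BAK1, PMAIP1, BID, BBC3, BCL2 and BCL2L11. Within it PMAIP1 and BID were the only neighbours whose counting intervals overlapped. By 4 h BBC3, at 18.9 FPKM, stood beside PMAIP1 at 18.4, with overlapping intervals, and above BID. At 19 h it lay between BAK1 and PMAIP1, and BCL2 had become the lowest, below BCL2L11. MCL1 and BCL2L1 were the most abundant in every RNA library, and at 19 h they stood at 80.7 and 74.7 FPKM, closer than in the control.

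Summed over members, the protectors outweighed the killers in RNA. The killers with values in both assays, BBC3, PMAIP1, BAK1, BID and BAD, summed to 59.2 FPKM of RNA in the control, 71.1 after 2 h, 98.9 after 4 h, 81.4 after 6 h and 77.3 after 19 h. The protectors BCL2, BCL2L1 and MCL1 summed to 126, 184, 179, 156 and 156 FPKM. The ratio of killers to protectors was 0.470 in the control, lowest after 2 h (0.388) and highest after 4 h (0.553), with 0.524 after 6 h and 0.497 after 19 h. In Ribo-Seq the ratio was 1.51 in the control and lower in each treated library, at 1.02, 1.43, 1.40 and 1.36, with the lowest again at 2 h, when MCL1 was at its height.

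Against the control the log2 ratio in RNA differed by -0.28 after 2 h, 0.23 after 4 h, 0.16 after 6 h and 0.081 after 19 h, with counting errors of 0.044 to 0.046. In density it differed by -0.57, -0.085, -0.11 and -0.16, with errors of 0.051 to 0.064. A sum gives most weight to the abundant genes. BAD made up 27.4 to 50.7% of the killers' RNA and 50.2 to 67.3% of their density, and MCL1 51.9 to 73.0% and 59.0 to 79.1% of the protectors'. Geometric means weigh the log2 change of each member alike. With them the ratio was above the control at each time in both assays. At 2 h it was so by 0.35 (RNA) and 0.18 (density). In RNA at 2 h and in density at each time the direction of the ratio thus depended on the weighting. In RNA at 4, 6 and 19 h it was above the control with both weightings. The geometric means lean on BBC3, whose log2 change at 2 h was 2.27 (RNA) and 2.24 (density). The next killer, PMAIP1, was at 0.52 and 0.67, and no ratio without BBC3 was taken. The floor of 1 FPKM also held the log2 change of BCL2 RNA at 19 h to -0.23, against -2.67 as deposited. Messenger levels per length are not protein amounts. The Ribo-Seq values were scaled to whole transcripts, of 1157 nt for BAD and 3932 nt for MCL1. The untranslated length of a gene thus enters its weight in the Ribo-Seq sums, shares and ratios. For this reason the 2 assays' ratios are not set against each other.

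**Figure D4:**
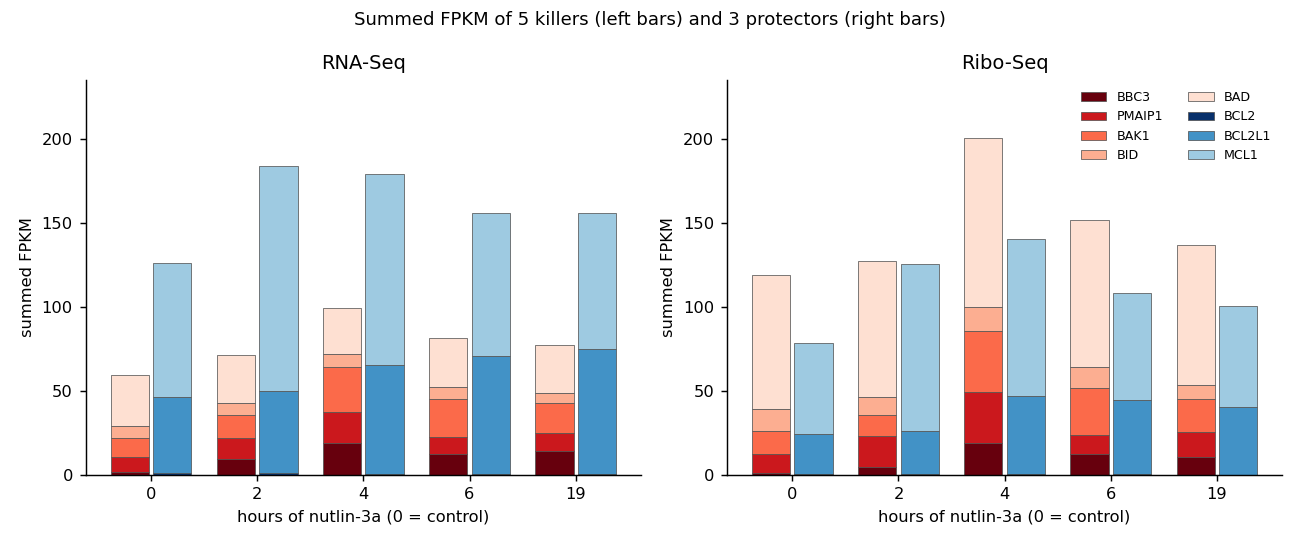
Summed FPKM of the 5 killers (left bars, red shades) and the 3 protectors (right bars, blue shades) in each library, stacked by gene, for RNA-Seq and Ribo-Seq. MCL1 and BCL2L1 fill the protectors' bars, the part of BAD stays near 30 FPKM in RNA, and the parts of BBC3, PMAIP1 and BAK1 are largest at 4 h.

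Of 15 further family genes listed, 9 had a row in both tables and 7 were tested. None was past 2-fold higher at any time. BCL2L12, a distant family member, was lower at 6 h and 19 h in both assays, where 5.39% and 7.1% of all tested genes were lower in RNA and 8.04% and 14.9% in density. Its RNA was 15.9 FPKM in the control, 15.7 after 2 h, 13.5 after 4 h, 6.56 after 6 h and 4.45 after 19 h, and the 19 h fold was 0.281 (95% interval 0.240 to 0.328). Density went from 25.2 FPKM to 7.28 at 6 h and 5.85 at 19 h.

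Further down the pathway lie the mitochondrial and caspase genes. Of 21 genes listed, 20 had a row in both tables and 16 were tested. The only 1 past 2-fold higher in RNA or density was PIDD, a death-domain scaffold that activates caspase-2 and is known as a p53 target. It was called from 4 h on in both assays, and the share of all tested genes called higher was 1.41% (4 h) and 2.49% (19 h) in RNA and 2.58% (4 h), 5.26% (6 h) and 6.22% (19 h) in density. The RNA of PIDD was 5.32 FPKM in the control, 5.10 after 2 h, 12.7 after 4 h, 17.0 after 6 h and 20.2 after 19 h. Its density was 1.56, 1.69, 4.66, 9.60 and 8.18 FPKM. The RNA fold was 3.80 at 19 h (95% interval 3.39 to 4.26), and the density fold 6.16 at 6 h (4.60 to 8.37). Unlike the RNA of BBC3, that of PIDD was highest in the last library.

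CASP2, the caspase that PIDD activates, went the other way. Its RNA was 14.5 FPKM in the control, 13.2 after 2 h, 7.91 after 4 h, 5.87 after 6 h and 5.83 after 19 h, and it was called lower in density from 4 h (0.527% of tested genes were) and in RNA from 6 h. The other gene called lower in RNA was BIRC5 (survivin), an inhibitor of apoptosis that is also a mitotic gene, which went from 61.6 FPKM to 12.4 at 6 h and 2.12 at 19 h.

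At 6 h 2 of the 16 were lower in density, CASP2 and BIRC5, as in RNA, where 8.04% and 5.39% of all tested genes were lower. At 19 h there were 4 in density, CYCS (cytochrome c itself), CASP2, BIRC5 and the outer membrane channel VDAC3, and 2 in RNA, beside 14.9% and 7.1% of all tested genes. CYCS density was 35.1 FPKM in the control and 13.4 at 19 h, a fold of 0.383 (95% interval 0.343 to 0.426), while its RNA was 36.0 and 22.2. The median log2 density change of the 16 was -0.43 at 19 h, against -0.19 over all tested genes, and in RNA -0.27 against -0.067. In TE a single gene of the list, ENDOG, a mitochondrial nuclease, passed 2-fold, at 19 h, where 6.14% of all tested genes did, so 1 of 16 is about the background. Its density was 15.2 FPKM in the control and 24.6 at 19 h and its RNA 10.8 and 7.86. APAF1, the apoptosome scaffold and a known p53 target, was 9.51 FPKM in the control, 12.3 at 4 h and 10.5 at 19 h in RNA, under 2-fold.

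**Figure D5:**
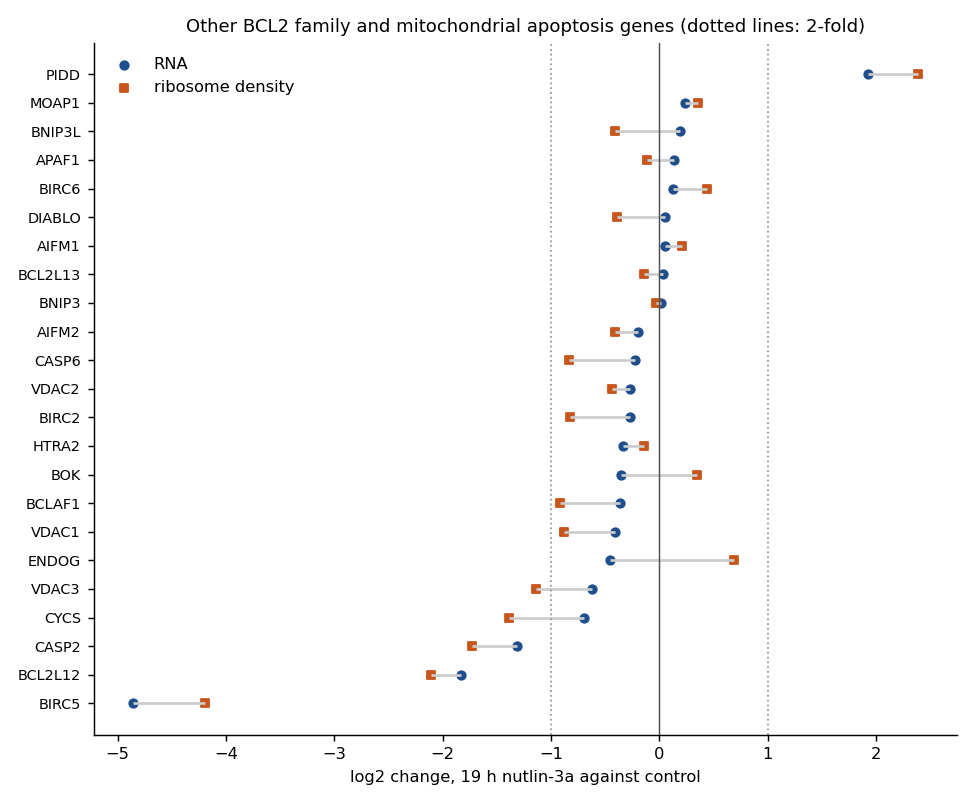
Log2 change in RNA (blue circles) and ribosome density (orange squares) at 19 h of nutlin-3a against the control for the 7 tested further family genes and the 16 tested mitochondrial apoptosis genes, ordered by RNA change. Dotted lines mark 2-fold. PIDD lies alone on the right, with log2 changes of 1.92 and 2.39, and BIRC5 farthest to the left, at -4.86 in RNA.

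The genes whose levels over the 10 libraries were most like those of the 3 called members were found by Pearson correlation of log2 FPKM, centred within each assay. For BBC3 these were SESN2 (r = 0.987), PLK3 (0.985) and BTG2 (0.977). For PMAIP1 they were ELK3 (0.956), PHLDA1 (0.953) and SPHK1 (0.95), and for BAK1 they were BPGM (0.982), SMEK1 (0.975) and LACTB (0.963). All pairs share the same libraries and the same control, and the values are descriptions of 10 points. Between members, r was highest for BAK1 and BCL2L1 (0.88), BBC3 and BCL2L1 (0.86), BBC3 and BAK1 (0.82) and PMAIP1 and MCL1 (0.75).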

How the data were processed

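RNA-Seq and Ribo-Seq levels of control and nutlin-3a-treated BJ cells were taken as deposited. As the study's methods describe, Bowtie alignment was to protein-coding transcripts, 1 isoform per gene (Ensembl release 65, build hg19 per the labels), and uniquely mapped reads were kept. The authors deposited FPKM values with 3 decimals. The methods state that Ribo-Seq levels use coding-sequence reads, whereas the column names say total. Both tables gave the same transcript length for 303 of 332 transcripts, so the values were scaled to whole transcripts and the ratio of the assays was not compared between genes. The assay of each table was inferred from its name, 1 naming ribosome-protected RNA only and the other both assays, which was taken for RNA-Seq.

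The members and gene lists were chosen with earlier results of these data known. Members were found by symbol, and 9 Ensembl IDs matched it. Conditions and times are those of the labels. Values under 1 FPKM were set to 1, genes with 5 FPKM or more in both assays, each in 1 library or more, were tested, and changes past 2-fold against the control library of the assay were called. With 1 library per group no model was fitted. Whole reads, library totals and lengths were recovered from the FPKM spacing (451 of 451 sampled transcripts). On simulated data 99.26% of 544 lengths were recovered, 98.7% of them right. Fold intervals are exact binomial (Clopper-Pearson) at 95% and level intervals exact Poisson. TE intervals use the counting error of the log2 ratio. All members, every listed gene past 2-fold, and the 3 genes most like each called member were named. APAF1 was chosen after its values were seen. Some genes of the pathway list are not reported here and were left out of its counts. Promoters came from RefSeq (GRCh38.p14) by symbol. Alternatives were another floor, a pseudocount, other filters, centring, a sliding cut-off of 1.75 local SDs over 301 genes of like level, and another baseline. Python 3.11.15, numpy 2.4.6, pandas 2.3.3, scipy 1.17.1 and matplotlib 3.10.9 were used.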

Additional observations from a re-analysis of the deposited data

How the results depend on the processing

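No paired analysis was possible because each group has 1 library and the labels carry no replicate numbers, and for the same reason no library could be left out. The counts of called members kept within 1.5 times of the reported ones with no filter and with changes centred on the median, at every time and in every measure. With a floor of 5 FPKM, 0 members were past 2-fold at 2 h in RNA and in density, where BBC3 had log2 changes of 0.91 and 0. With a mean of at least 20 FPKM, 3 members were left and 0 were called in RNA and density at 2, 4, 6 and 19 h. With the sliding cut-off there were 3 in RNA and 3 in density at 2 h (BBC3, MCL1 and PMAIP1, against 4.23% and 6.32% of all tested genes), 5 in density at 4 h (BCL2L1 and MCL1 added, 7.84%), 2 in TE at 4 h (BAD and BBC3, 13%) and 1 in density at 6 h (BBC3, 7.13%). With a pseudocount of 1 FPKM there was 1 in density at 6 h, since BAK1 came to a log2 change of 0.98. Against the 2 h library there was 1 in RNA at 4 h and 0 at 6 h and 19 h, where BBC3 stood at 0.37 and 0.59. With values as deposited, an alternative chosen after seeing the data, BCL2 was added. This gave 4 in RNA at 4 h and 2 in RNA at 6 h and 19 h. It also gave 2 in density at 19 h and 1 in TE at 6 h. In density at 6 h BCL2 was past 2-fold as well, at 0.435 of the control. No share of all transcripts is given for this setting, the pseudocount or the 2 h baseline, so those counts have no background beside them.

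The log2 ratio of killers to protectors against the control, as geometric means, was 0.35, 0.85, 0.60 and 0.53 in RNA at 2, 4, 6 and 19 h and 0.18, 0.92, 0.57 and 0.44 in density. Against the 2 h library it was 0.51, 0.43 and 0.36 in RNA at 4, 6 and 19 h and 0.49, 0.46 and 0.41 in density. Without BAD, chosen after seeing the data, it was 0.0014, 0.79, 0.53 and 0.43 in RNA and -0.42, 0.52, 0.26 and 0.097 in density. Without MCL1, likewise, it was 0.16 at 2 h, -0.16 at 6 h and -0.31 at 19 h in RNA and 0.0050, -0.51 and -0.53 at the same times in density. The ratio thus changed sign with the genes that a sum weighs most at 2, 6 and 19 h in both assays, and at 4 h in density. In RNA at 4 h it was above the control as a sum (0.23), as geometric means (0.85) and without BAD (0.79). The 4 h values without MCL1 are not reported here. All of these ratios include BBC3, the killer with the largest change.

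The values rest on 1 library per condition, and the counting intervals hold no culture or run error. The study's methods name a sequencer-run effect and state that conditions were set against a control of their own run, with the 6 h and 19 h libraries listed beside a control. The run of the 2 h and 4 h libraries is not given in the sources used here, and its part was not tested. BBC3 density in the control rests on 22 reads and BCL2 density at 19 h on 3. Isoforms, protein levels and cell death were not analysed here.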

Other observations

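Some pathway genes under the 5 FPKM filter also differed from the control as deposited. BCL2L2 (BCL-w), a protector, had 19.4 FPKM of RNA in the control and 24.4 after 4 h, while its density was 0.967 FPKM in the control, 1.85 after 2 h, 3.11 after 4 h, 2.73 after 6 h and 2.08 after 19 h, from 41, 79, 162, 99 and 58 reads. The density fold at 4 h was 3.21 (95% interval 2.27 to 4.65) and the RNA fold 1.26 (1.18 to 1.34). BCL2L2 shares its locus with a readthrough gene, so its reads are uncertain.

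BMF, a BH3-only killer, had 0.564 FPKM of RNA in the control, 0.333 after 2 h, 0.375 after 4 h, 1.22 after 6 h and 2.11 after 19 h, a fold of 3.75 after 19 h (95% interval 2.84 to 5.02). Its density was 0.181, 0.018, 0.192, 0.381 and 0.441 FPKM at the same times, from 10, 1, 13, 18 and 16 reads. BIRC3, an inhibitor of apoptosis and a known NF-kB target, had 0.75 FPKM of RNA in the control, 2.46 after 2 h, 2.62 after 4 h, 0.943 after 6 h and 0.687 after 19 h. The RNA fold was 3.28 at 2 h (2.60 to 4.17) and 3.49 at 4 h (2.76 to 4.43). Its density was 0.131 FPKM in the control, 0.097 at 2 h and 0.386 at 4 h, from 8, 6 and 29 reads. At 2 h its density was thus not above the control, though on few reads. Each of these rests on 1 library per time.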
